A study of Mus musculus with 9 samples.

Results

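Lactate dehydrogenase and the lactate transporters of cumulus cells were read from all probe sets annotated to Ldha, Ldhb, Slc16a1 and Slc16a3. These are 4 of 18193 genes on the array, read by 8 of its 45101 probe sets: 1 for Ldha, 4 for Ldhb, 2 for Slc16a1 and 1 for Slc16a3. None of the 8 was shared with another gene. All 8 lay above the 40th percentile of their own array on all 9 arrays, so none was lost to the filter on dim signals. Levels are log2 expression values, on which a difference of 1 is a doubling. Different probe sets differ in brightness for the same amount of RNA, so a probe set was compared only with itself across arrays.

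Cumulus cells, which surround the oocyte and are coupled to it, came from 3 genotypes with 3 arrays each. DM females were Bmp15-/-Gdf9+/-, so they lacked the oocyte-secreted growth factor BMP15 and had a single intact allele for its relative GDF9. Bmp15-/- females lacked BMP15 with both Gdf9 alleles intact, and wildtype females had neither mutation. The Bmp15 deletion is therefore shared by DM and Bmp15-/-, and DM against Bmp15-/- compares the Gdf9 allele within it. All groups were on a B6/129 background, 4 to 5 months old and primed with 5 IU of equine chorionic gonadotropin for 48 hours. Cells of all groups were isolated in medium with 5 µM milrinone, a phosphodiesterase inhibitor that keeps the oocyte from maturing. Each array held cells from 75 to 100 complexes pooled over 3 to 4 mice, so the spread between arrays is one between pools and not between single animals. In such bulk samples, fewer cells of a type and less RNA per cell cannot be told apart.

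Lactate dehydrogenase is a tetramer of A subunits (from Ldha) and B subunits (from Ldhb) that interconverts pyruvate and lactate with NADH and NAD+. Tetramers rich in A are typical of glycolytic tissue and those rich in B of tissue that oxidises lactate. Lactate crosses the membrane with a proton through the monocarboxylate transporters MCT1 (Slc16a1), found in most cells, and MCT4 (Slc16a3), the low-affinity exporter of glycolytic cells. Oocytes use glucose poorly, and cumulus cells are known to break it down and to pass on products such as pyruvate.

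Oocyte transcripts differed between arrays of the same genotype. Wildtype array 2 and Bmp15-/- array 2 had the highest oocyte signal: the linear values of the 19 oocyte markers found summed to 950 to 1300 in DM, 1030 to 2560 in Bmp15-/- and 1140 to 3570 in wildtype. Of these markers 17 exceeded the filter on some array, and Zp1 and Nobox on none. Bmp15 itself, an oocyte gene, lay at 5.05 to 5.09 in DM, at 5.08 to 5.10 in Bmp15-/-, and at 5.10, 9.58 and 8.41 on wildtype arrays 1 to 3 (log2, the brightest of its 3 probe sets). Gdf9 lay at 4.67 to 5.63 in DM, 4.99 to 6.59 in Bmp15-/- and 5.03 to 8.12 in wildtype. Both are oocyte genes, and it is not known here whether their probes fall in the deleted parts. Wildtype array 1 thus sat at the mutant level for Bmp15, while its Ldha and Slc16a3 values lay with those of the other wildtype arrays. All 9 cumulus markers found were above the filter, with sums of 24800 to 31200 in DM, 32100 to 33000 in Bmp15-/- and 33300 to 35100 in wildtype. In DM against wildtype 4 of the 9 fell and 2 rose, beside 18.1% and 9.94% of all genes tested. Inhbb, the brightest in wildtype, fell by 0.75 (adjusted p = 0.00574). Slc38a3 rose by 1.24 (0.00161) and Nr5a2 by 0.36 (0.0199). The difference between the 3' and 5' control probe sets of Gapdh, a measure of RNA integrity, was 0.79 to 0.95 in DM, 0.66 to 0.73 in Bmp15-/- and 0.52 to 0.59 in wildtype (log2). The same difference for actin was 1.85 to 2.12 in DM, 1.85 to 1.92 in Bmp15-/- and 1.87 to 1.90 in wildtype. The Gapdh difference was thus highest in DM and lowest in wildtype without overlap, and its part in the results was not tested.

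The promoters of the 4 genes are shown because Ldha and Slc16a3 on the one hand and Ldhb on the other moved in opposite directions. Each is the RefSeq window of assembly GRCm38.p6 from 250 bases before to 50 bases after the transcript start, printed 5′ to 3′ on the strand of the gene. Capitals mark ACGTG, the core of the element bound by the hypoxia-inducible factors, on either strand, and CACGTG, the E-box. An E-box holds ACGTG on both strands and counts for 2 such matches. The windows lie at chr7:46845554-46845853 (plus strand) for Ldha, chr11:120948817-120949116 (plus) for Slc16a3, chr6:142507908-142508207 (minus) for Ldhb and chr3:104638414-104638713 (plus) for Slc16a1.
Ldha: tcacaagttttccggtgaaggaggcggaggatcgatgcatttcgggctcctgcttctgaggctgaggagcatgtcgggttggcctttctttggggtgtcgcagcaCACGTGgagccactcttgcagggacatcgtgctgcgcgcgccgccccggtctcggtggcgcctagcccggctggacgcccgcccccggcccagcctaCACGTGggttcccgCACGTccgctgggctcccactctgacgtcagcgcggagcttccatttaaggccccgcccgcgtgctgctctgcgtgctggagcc
Slc16a3: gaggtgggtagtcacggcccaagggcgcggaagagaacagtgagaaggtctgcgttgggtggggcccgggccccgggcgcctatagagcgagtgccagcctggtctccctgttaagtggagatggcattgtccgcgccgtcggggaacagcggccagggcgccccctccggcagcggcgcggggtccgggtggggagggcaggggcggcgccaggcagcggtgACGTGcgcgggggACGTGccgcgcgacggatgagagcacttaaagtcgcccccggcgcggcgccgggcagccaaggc
Ldhb: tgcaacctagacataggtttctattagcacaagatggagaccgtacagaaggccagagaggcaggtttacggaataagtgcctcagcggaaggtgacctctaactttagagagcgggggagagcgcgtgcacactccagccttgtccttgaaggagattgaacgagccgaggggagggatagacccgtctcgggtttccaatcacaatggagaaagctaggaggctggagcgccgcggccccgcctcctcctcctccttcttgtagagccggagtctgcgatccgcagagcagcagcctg
Slc16a1: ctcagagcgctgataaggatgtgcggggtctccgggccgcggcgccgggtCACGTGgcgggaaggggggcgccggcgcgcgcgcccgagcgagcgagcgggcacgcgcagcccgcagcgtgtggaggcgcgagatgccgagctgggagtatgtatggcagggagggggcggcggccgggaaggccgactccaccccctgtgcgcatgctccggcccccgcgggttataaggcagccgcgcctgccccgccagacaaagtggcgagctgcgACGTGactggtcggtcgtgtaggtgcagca

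The Ldha window held 5 matches to ACGTG, 4 of them in the 2 E-boxes that begin 145 and 48 bases before the start. The Slc16a3 window held 2 matches, beginning 27 and 14 bases before the start, and no E-box. The Ldhb window held 0 matches to either motif. The Slc16a1 window held 3 matches, 2 of them in an E-box that begins 200 bases before the start and 1 that begins 20 bases after it. A downstream alternative start of Ldha, at chr7:46846832-46847131, held 0. Over 32851 RefSeq promoters of this length, ACGTG on either strand occurred in 19.6% and CACGTG in 7.2%. Bases G and C made up 67.3% of the Ldha window, 73.3% of that of Slc16a3, 57.3% of that of Ldhb and 73.7% of that of Slc16a1. The shares over all promoters were not matched for this content. A match describes these letters only and is no evidence of binding.

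Ldha was lower and Ldhb higher in both mutants, with DM farther from wildtype than Bmp15-/- in each case. In DM both changes passed the test, and in Bmp15-/- only that of Ldha did. Slc16a3 had the largest change of the 4 genes, an 8.24-fold fall in DM against wildtype. The main probe set of Slc16a1 passed the test in no comparison.

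The Ldha probe set (1419737_a_at) read 10.83, 11.12 and 10.93 in DM, 11.81, 11.88 and 11.68 in Bmp15-/-, and 12.74, 12.82 and 12.70 in wildtype (log2). The 3 genotypes formed separate steps, with DM lowest and wildtype highest and no array of one genotype within the range of another. Means were 10.96 ± 0.15 in DM, 11.79 ± 0.10 in Bmp15-/- and 12.75 ± 0.06 in wildtype (SD, n = 3 each), so each step exceeded the spread within genotypes several fold.

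Ldha, the subunit that marks lactate-producing tissue, fell by 1.79 ± 0.10 log2 units in DM against wildtype (SE; 95% interval -2.01 to -1.57). That is a 3.46-fold fall with an adjusted p of 1.11e-05. In Bmp15-/- against wildtype it fell by 0.96 ± 0.10 (-1.18 to -0.74), or 1.95-fold (adjusted p = 0.00098). In DM against Bmp15-/-, the contrast of the Gdf9 allele, it fell by 0.83 ± 0.10 (-1.05 to -0.61), or 1.78-fold (adjusted p = 0.00662). Ranked by the size of the fall among 13446 genes tested, Ldha was number 69 in DM against wildtype, 171 in Bmp15-/- against wildtype and 100 in DM against Bmp15-/-.

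The probe set that represents Ldhb (1434499_a_at) read 11.93, 11.67 and 11.91 in DM, 11.04, 10.66 and 11.42 in Bmp15-/-, and 10.59, 10.58 and 10.43 in wildtype. The order of genotypes was the reverse of that for Ldha, again without overlap, but Bmp15-/- array 2 lay only just above the wildtype arrays. Means were 11.84 ± 0.15 in DM, 11.04 ± 0.38 in Bmp15-/- and 10.53 ± 0.09 in wildtype (SD, n = 3 each).

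Ldhb, the subunit typical of heart and other oxidative tissue, rose by 1.31 ± 0.17 in DM against wildtype (SE; 0.92 to 1.69). This is a 2.47-fold rise (adjusted p = 0.000765). In Bmp15-/- against wildtype the difference was 0.51 ± 0.17 (0.12 to 0.89) and did not pass (adjusted p = 0.0968). Without Bmp15-/- array 2 it was 0.70 and passed (adjusted p = 0.0319). In DM against Bmp15-/- Ldhb rose 1.74-fold, by 0.80 ± 0.17 (0.41 to 1.19), with an adjusted p of 0.0412 that no longer passed in 9 of 19 alternative settings. Without wildtype array 2 and Bmp15-/- array 2, the arrays with most oocyte signal, that rise was 0.61 (adjusted p = 0.168).

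The other 3 Ldhb probe sets repeated the order. Probe set 1455235_x_at had means of 11.06 ± 0.22 in DM, 10.22 ± 0.19 in Bmp15-/- and 9.94 ± 0.08 in wildtype. Probe set 1448237_x_at ran from 10.78 to 11.16 in DM, from 9.96 to 10.46 in Bmp15-/- and from 9.76 to 9.87 in wildtype. Probe set 1416183_a_at ran from 10.65 to 11.15 in DM, from 9.89 to 10.23 in Bmp15-/- and from 9.64 to 9.84 in wildtype. In the fit over 27954 probe sets, these 3 rose by 1.13, 1.18 and 1.12 in DM against wildtype (adjusted p = 0.000797, 0.000786 and 0.00119). In Bmp15-/- against wildtype they differed by 0.28, 0.41 and 0.36, and none passed (adjusted p = 0.245, 0.124 and 0.174). In 1455235_x_at the lowest Bmp15-/- array lay within the wildtype range, which reached 10.02. In DM against Bmp15-/- the 3 rose by 0.85, 0.78 and 0.75 (adjusted p = 0.0231, 0.0346 and 0.0398), while the representative probe set missed the threshold in this fit (adjusted p = 0.0572). An x in the name marks a probe set with some probes that can bind other transcripts. The 4 sets read the same RNA on the same arrays and are no independent samples.

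**Figure D1:**
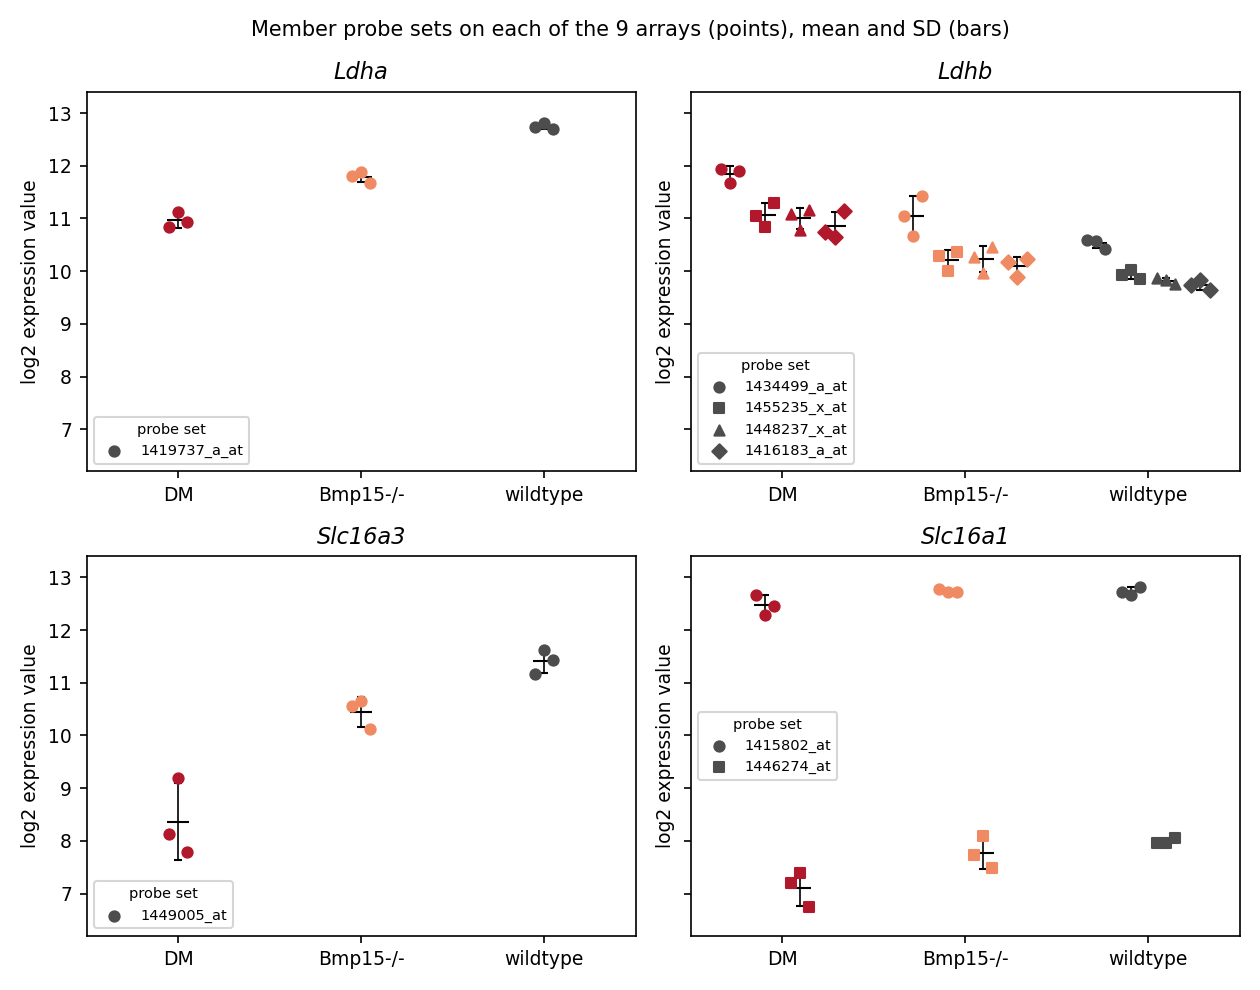
Log2 expression value of every probe set of Ldha, Ldhb, Slc16a3 and Slc16a1 on each of the 9 arrays, in columns for DM, Bmp15-/- and wildtype, with a marker shape per probe set and bars for the mean and SD over 3 arrays. Ldha and Slc16a3 are lowest in DM and highest in wildtype, all 4 Ldhb probe sets show the reverse, and the brighter Slc16a1 probe set lies between 12.29 and 12.82 throughout.

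Of the transporters, Slc16a3 fell in DM, and the probe sets of Slc16a1 disagreed. Slc16a3 (1449005_at), the gene for the exporter MCT4, read 8.12, 9.19 and 7.79 in DM, 10.56, 10.66 and 10.12 in Bmp15-/-, and 11.16, 11.62 and 11.44 in wildtype. The genotypes did not overlap, and DM array 2 stood above the other DM arrays. Means were 8.36 ± 0.74 in DM, 10.45 ± 0.29 in Bmp15-/- and 11.41 ± 0.23 in wildtype (SD, n = 3 each).

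Slc16a3 fell by 3.04 ± 0.32 in DM against wildtype (SE; -3.75 to -2.33), an 8.24-fold fall with an adjusted p of 0.00024. In DM against Bmp15-/- it fell by 2.09 ± 0.32 (-2.80 to -1.37), or 4.24-fold (adjusted p = 0.0114). Only 7 genes fell more in DM against wildtype and 2 in DM against Bmp15-/-. In Bmp15-/- against wildtype the difference was -0.96 ± 0.32 (-1.67 to -0.25), the same size as that of Ldha, and did not pass (adjusted p = 0.0907). The DM arrays enter the shared variance of the fit. With DM array 2 left out the same difference passed (adjusted p = 0.0123), as it did when only the 6 arrays compared were fitted (0.0144). The fall in DM against Bmp15-/- did not pass without Bmp15-/- array 1 (-2.03, adjusted p = 0.0517), without Bmp15-/- array 2 (-1.98, 0.0524), or with only the 6 arrays compared (-2.09, 0.052).

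Slc16a1 (1415802_at), the gene for the widely expressed MCT1, read 12.67, 12.29 and 12.45 in DM, 12.77, 12.72 and 12.73 in Bmp15-/-, and 12.72, 12.67 and 12.82 in wildtype. Bmp15-/- and wildtype arrays were interleaved, and DM arrays lay at or just below them. Means were 12.47 ± 0.19 in DM, 12.74 ± 0.03 in Bmp15-/- and 12.74 ± 0.08 in wildtype. The difference was -0.27 ± 0.10 in DM against wildtype (SE; -0.50 to -0.03, adjusted p = 0.0879) and 0.00 in Bmp15-/- against wildtype (-0.23 to 0.24, adjusted p = 0.991). It was -0.27 in DM against Bmp15-/- (-0.50 to -0.03, adjusted p = 0.195). The DM difference from wildtype passed without DM array 1 (-0.37, adjusted p = 0.0278).

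A second, dimmer Slc16a1 probe set (1446274_at) read 7.19, 7.38 and 6.74 in DM, 7.73, 8.09 and 7.49 in Bmp15-/-, and 7.95, 7.96 and 8.05 in wildtype. Here the DM arrays were all lowest, and Bmp15-/- array 2 exceeded every wildtype array. It fell by 0.88 ± 0.19 in DM against wildtype (adjusted p = 0.0095 over all probe sets), while its differences of -0.22 in Bmp15-/- against wildtype and -0.67 in DM against Bmp15-/- did not pass (adjusted p = 0.512 and 0.106). The 2 probe sets of Slc16a1 therefore disagree on whether it changed in DM.

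In DM against wildtype, 3 of the 4 genes were called, beside 28.1% of all genes tested. In Bmp15-/- against wildtype 1 of the 4 was called, beside 9.07%, and in DM against Bmp15-/- 3 of the 4, beside 3.25%. By probe set, 7 of 8 were called in DM against wildtype, beside 24.3% of all probe sets. The corresponding counts were 1 of 8 in Bmp15-/- against wildtype, beside 6.32%, and 5 of 8 in DM against Bmp15-/-, beside 1.92%. Of the 8 probe sets 4 read Ldhb, so counts by probe set repeat that gene and are not independent. Groups did not overlap in 3 of the 4 genes in DM against wildtype (43.3% of all genes), in 3 of 4 in Bmp15-/- against wildtype (36.8%) and in 4 of 4 in DM against Bmp15-/- (21.4%). Without wildtype array 2 and Bmp15-/- array 2, Ldha differed by -1.76 in DM against wildtype, -0.97 in Bmp15-/- against wildtype and -0.78 in DM against Bmp15-/- (adjusted p = 0.000476, 0.0209 and 0.0686). Slc16a3 then differed by -2.94, -0.96 and -1.98 in the same comparisons (adjusted p = 0.00403, 0.307 and 0.104). Ldhb differed by 1.33 in DM against wildtype and 0.72 in Bmp15-/- against wildtype (adjusted p = 0.0027 and 0.0909). Without wildtype array 1, the changes in DM against wildtype were -1.80 for Ldha, 1.335 for Ldhb and -3.17 for Slc16a3 (adjusted p = 0.000148, 0.00392 and 0.00123), and Ldha in Bmp15-/- against wildtype was at -0.97 (0.00611).

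The balance of the subunits was read within each array as the Ldha value minus the Ldhb value. This cancels a shift of the array that is equal for both probe sets. A factor that acts unequally on them, as RNA integrity may, is not cancelled. Its zero has no meaning, since the probe sets differ in brightness, and only its differences between arrays are read. It was -1.11, -0.54 and -0.98 in DM, 0.77, 1.23 and 0.26 in Bmp15-/-, and 2.15, 2.24 and 2.27 in wildtype (log2). All 3 DM arrays lay below all Bmp15-/- arrays and these below all wildtype arrays, with the wildtype arrays within 0.12 of each other. Means were -0.88 ± 0.29 in DM, 0.75 ± 0.48 in Bmp15-/- and 2.22 ± 0.06 in wildtype (SD, n = 3 each). The ratio of Ldha to Ldhb signal was 8.56-fold lower in DM than in wildtype (difference -3.10), 2.77-fold lower in Bmp15-/- than in wildtype (-1.47) and 3.10-fold lower in DM than in Bmp15-/- (-1.63). The exact 2-sided permutation test gave p = 0.1 for each, the smallest value that 3 against 3 arrays allow, so no such difference can pass 0.05. With wildtype array 2 and Bmp15-/- array 2 left out, the differences were -3.09, -1.69 and -1.39 in the same order.

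The balance of the transporters, Slc16a3 minus Slc16a1, was -4.56, -3.10 and -4.67 in DM, -2.20, -2.06 and -2.60 in Bmp15-/-, and -1.56, -1.04 and -1.38 in wildtype. It showed the same non-overlapping order, with DM array 2 nearest to the Bmp15-/- arrays. Means were -4.11 ± 0.88 in DM, -2.29 ± 0.28 in Bmp15-/- and -1.33 ± 0.26 in wildtype. The ratio of Slc16a3 to Slc16a1 signal was 6.86-fold lower in DM than in wildtype, 1.95-fold lower in Bmp15-/- than in wildtype and 3.52-fold lower in DM than in Bmp15-/- (exact permutation p = 0.1 each). These ratios use the brighter Slc16a1 probe set, so their size depends on that choice. The log2 differences were -2.78, -0.96 and -1.82 in that order. With the mean of all probe sets of a gene they were -2.47, -0.85 and -1.62.

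Slc16a3 was also set against Ldha, a balance added after the values were seen. It was -2.71, -1.93 and -3.15 in DM, -1.25, -1.22 and -1.56 in Bmp15-/-, and -1.58, -1.20 and -1.26 in wildtype. Bmp15-/- and wildtype arrays were interleaved here, with means of -1.34 ± 0.19 in Bmp15-/- and -1.34 ± 0.20 in wildtype, and all DM arrays lay lower, with a mean of -2.60 ± 0.62. In DM the exporter signal was thus 2.38-fold lower relative to Ldha than in wildtype and 2.39-fold lower than in Bmp15-/- (exact permutation p = 0.1 each), whereas Bmp15-/- and wildtype differed by 0.00 (exact permutation p = 1).

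**Figure D2:**
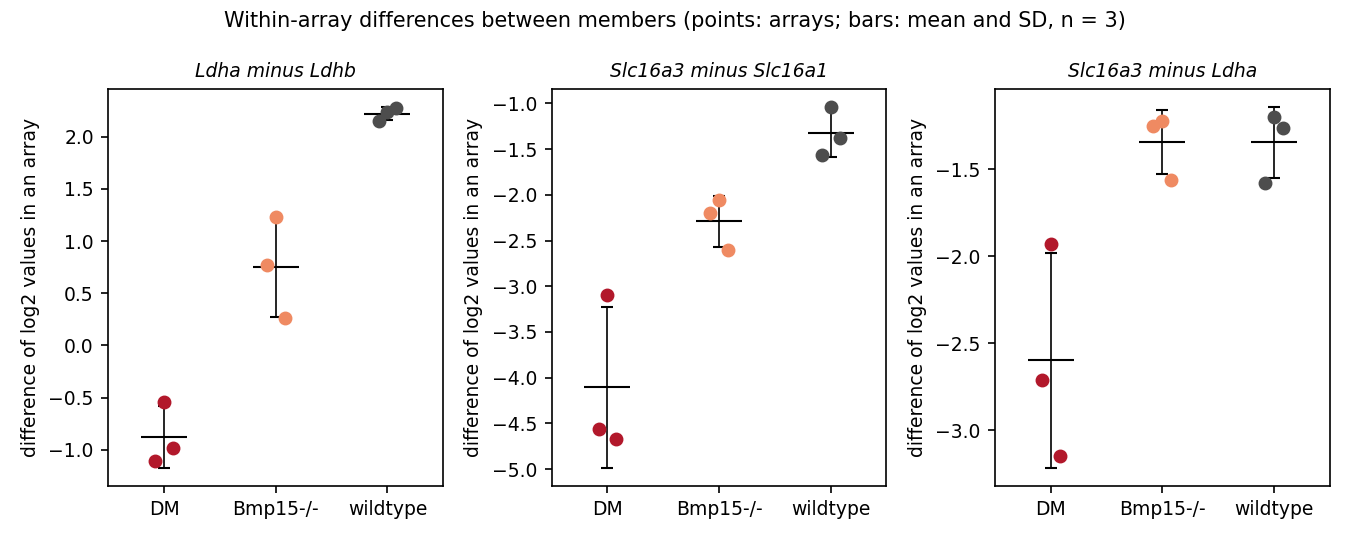
Within-array differences of log2 values for Ldha minus Ldhb, Slc16a3 minus Slc16a1 and Slc16a3 minus Ldha, with a point per array, in columns for DM, Bmp15-/- and wildtype, and bars for the mean and SD over 3 arrays. The first and second balances separate all genotypes, while in the third DM alone lies lower, at -1.93 or below, and Bmp15-/- and wildtype share a range.

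Among the other genes of the lactate dehydrogenase family, Uevld alone passed a test, in DM against wildtype. Of 6 listed, 5 were tested, Ldha and Ldhb included: 2 fell and 1 rose in DM against wildtype, 1 fell in Bmp15-/- against wildtype, and 1 fell and 1 rose in DM against Bmp15-/-. Of all genes tested, 28.1%, 9.07% and 3.25% were called in these comparisons. The median changes were -0.22, -0.11 and -0.11 in the same order, beside -0.06, -0.04 and -0.03 over all genes. Without wildtype array 2 and Bmp15-/- array 2, 1 fell and 1 rose in DM against wildtype, 1 fell in Bmp15-/- against wildtype, and 0 were called in DM against Bmp15-/-. Of 13446 genes tested, 2210, 166 and 11 were then called in the same order. Uevld, which joins a ubiquitin-conjugating-like domain to a lactate dehydrogenase-like domain, fell by 0.56 ± 0.14 in DM against wildtype (adjusted p = 0.0156) and differed by -0.14 in Bmp15-/- against wildtype (0.561). Ldhc, the testis form, had means of 5.35 ± 0.08 in DM, 5.46 ± 0.12 in Bmp15-/- and 5.57 ± 0.15 in wildtype, close to the filter at about 5.02, and passed in no comparison. Ldhd, the mitochondrial D-lactate dehydrogenase, had means of 5.38 ± 0.16, 5.32 ± 0.23 and 5.14 ± 0.23 in the same order and likewise passed in none. Ldhal6b lay below the filter on all 9 arrays and was not tested.

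Of 17 monocarboxylate transporters and partner proteins found on the array, 10 were tested. In DM against wildtype 3 fell and 0 rose, in Bmp15-/- against wildtype 1 fell, and in DM against Bmp15-/- 2 fell. Beside these, 18.1%, 5.78% and 1.61% of all genes were called lower, so the counts in both mutants against wildtype lie near the background. Median changes were -0.21, -0.08 and -0.20. Besides Slc16a3, the transporter that fell was Slc16a6 (MCT7), which carries ketone bodies in zebrafish liver. It read 5.96, 6.33 and 6.35 in DM, 7.05, 6.81 and 6.77 in Bmp15-/-, and 7.85, 7.62 and 7.72 in wildtype. Its genotypes formed separate steps in the order seen for Ldha. It fell by 1.52 ± 0.13 in DM against wildtype (adjusted p = 9.91e-05), by 0.85 in Bmp15-/- against wildtype (adjusted p = 0.00581) and by 0.67 in DM against Bmp15-/- (adjusted p = 0.0282).

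Bsg encodes basigin, the membrane glycoprotein that MCT1 and MCT4 need to reach the cell surface. It read 9.98, 10.27 and 9.74 in DM, 10.59, 10.44 and 10.45 in Bmp15-/-, and 10.82, 10.96 and 10.91 in wildtype. The genotypes did not overlap. It fell by 0.90 ± 0.13 in DM against wildtype (adjusted p = 0.00107), and its differences of -0.40 in Bmp15-/- against wildtype and -0.50 in DM against Bmp15-/- did not pass (adjusted p = 0.0801 and 0.0673). Embigin (Emb), the other such partner, lay near the filter and differed by 0.03 in DM against wildtype and -0.08 in Bmp15-/- against wildtype (adjusted p = 0.921 and 0.831).

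In the fit over genes, Slc16a4, Slc16a5, Slc16a8, Slc16a10 and Slc16a13 passed in no comparison. The differences of their brightest probe sets in DM against wildtype were -0.08, -0.15, 0.13, 0.30 and -0.42 in that order. A dimmer Slc16a4 probe set rose by 0.37 there (adjusted p = 0.0211 over all probe sets), so the probe sets of Slc16a4 disagree. Slc16a7 (MCT2, the high-affinity transporter), Slc16a9, Slc16a11, Slc16a12, Slc16a14 and the sodium-coupled carriers Slc5a8 and Slc5a12 lay below the filter on at least 7 of the 9 arrays. With the pair of arrays of highest oocyte signal left out, the counts of these transporters that fell were 3 in DM against wildtype and 0 in the other comparisons. Calls over 13446 genes were then 2210 in DM against wildtype, 166 in Bmp15-/- against wildtype and 11 in DM against Bmp15-/-.

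**Figure D3:**
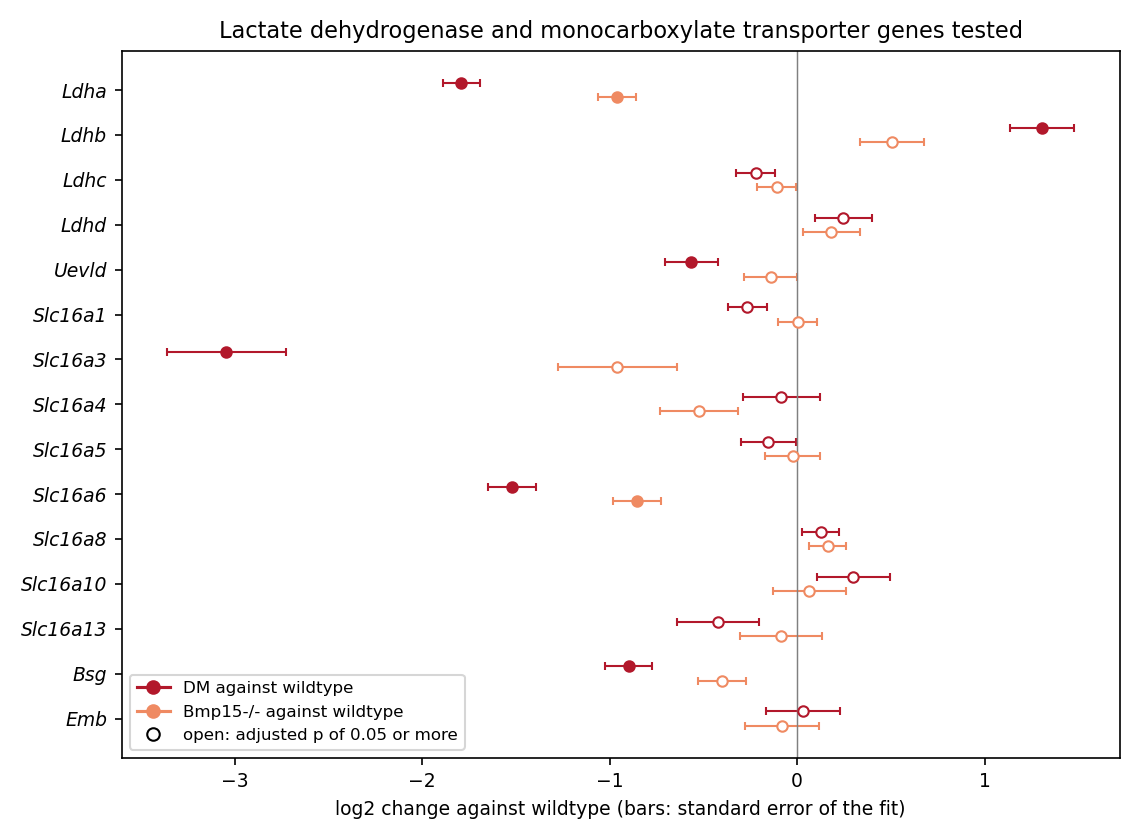
Log2 change of each tested lactate dehydrogenase gene, monocarboxylate transporter and partner, DM against wildtype above Bmp15-/- against wildtype in each row, with bars for the standard error of the fit and open symbols where the adjusted p is 0.05 or more. Slc16a3, Ldha and Slc16a6 lie farthest to the left and Ldhb alone stands to the right with a filled symbol.

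Upstream of lactate, the genes from glucose uptake to pyruvate were lower in both mutants. Of 13 tested, 10 fell and 0 rose in DM against wildtype (median -1.26), 9 fell in Bmp15-/- against wildtype (median -0.61), and 10 fell in DM against Bmp15-/- (median -0.70). The background shares were 18.1%, 5.78% and 1.61% of all genes lower in those comparisons. Leaving out wildtype array 2 and Bmp15-/- array 2, whose oocyte signal was highest, gave a count of 10 in DM against wildtype, 1 in Bmp15-/- against wildtype and 1 in DM against Bmp15-/-. Of all genes tested, 2210, 166 and 11 were then called in these comparisons. Glycolysis in these mutants was under study before, so the list is not independent evidence of its direction.

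Pfkp, the platelet form of phosphofructokinase, had means of 8.94 ± 0.07 in DM, 10.05 ± 0.18 in Bmp15-/- and 11.27 ± 0.14 in wildtype. It fell 5.03-fold in DM against wildtype (adjusted p = 5.22e-06) and 2.33-fold in Bmp15-/- against wildtype (0.000537). Its other 2 probe sets fell less in DM, by 1.63 and 0.76. Pkm, the pyruvate kinase that makes the pyruvate on which lactate dehydrogenase acts, had means of 10.69 ± 0.15 in DM, 11.54 ± 0.12 in Bmp15-/- and 12.21 ± 0.05 in wildtype, a 2.86-fold fall in DM (adjusted p = 3.77e-05) and a 1.59-fold fall in Bmp15-/- (0.00614). Tpi1 (triosephosphate isomerase) and Aldoa (aldolase A) fell by 1.82 ± 0.16 and 1.26 ± 0.11 in DM against wildtype (adjusted p = 0.000115 and 0.000109). Of the 5 Aldoa probe sets, 1 differed by -0.01 in DM and by 0.20 in Bmp15-/- against wildtype and passed in neither (adjusted p = 0.956 and 0.423). Hk2, the hexokinase of insulin-sensitive tissue, fell 2.00-fold in DM against Bmp15-/- (adjusted p = 0.00912). Pgam1, phosphoglycerate mutase, fell 1.58-fold in that comparison (adjusted p = 0.00912). In Bmp15-/- against wildtype, Aldoc (aldolase C) fell by 1.30 ± 0.24 (adjusted p = 0.0116) and Pfkl, liver phosphofructokinase, by 1.02 ± 0.17 (0.00849), although 1 of the 3 Pfkl probe sets differed by only 0.04.

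Genes for the entry of pyruvate into mitochondria and its oxidation moved in both directions. Of 13 tested, 6 fell and 3 rose in DM against wildtype (median -0.22), 2 fell and 4 rose in Bmp15-/- against wildtype (median -0.11), and 2 fell and 0 rose in DM against Bmp15-/- (median -0.09). Of all genes, 18.1%, 5.78% and 1.61% were called lower and 9.94%, 3.29% and 1.64% higher in these comparisons. Quantile normalization changed the DM against wildtype counts to 3 fallen and 4 risen, where 1856 of 13446 genes were called lower and 1738 higher. Without wildtype array 2 and Bmp15-/- array 2 the counts were 4 fallen and 3 risen in DM against wildtype and 0 fallen and 1 risen in Bmp15-/- against wildtype. In DM against Bmp15-/- they were 0 either way. Among all 13446 genes, 2210, 166 and 11 were then called in that order.

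Pyruvate dehydrogenase, which commits pyruvate to oxidation, is switched off by the kinases Pdk1 to Pdk4 and on by the phosphatases Pdp1 and Pdp2. Pdk1 had means of 10.11 ± 0.22 in DM, 10.87 ± 0.04 in Bmp15-/- and 11.56 ± 0.07 in wildtype. It fell 2.73-fold in DM against wildtype (adjusted p = 5.62e-05), 1.61-fold in Bmp15-/- against wildtype (0.00746) and 1.69-fold in DM against Bmp15-/- (0.00992). Pdk4 went the other way, with means of 13.38 ± 0.07 in DM, 13.27 ± 0.06 in Bmp15-/- and 12.41 ± 0.11 in wildtype. It rose 1.97-fold in DM (adjusted p = 0.000109) and 1.82-fold in Bmp15-/- (0.000796) against wildtype. Pdp1 rose as well, with means of 8.48 ± 0.34 in DM, 8.17 ± 0.15 in Bmp15-/- and 7.14 ± 0.03 in wildtype, which is 2.53-fold in DM (adjusted p = 0.000426) and 2.05-fold in Bmp15-/- (0.00614). Dld, a subunit shared by several mitochondrial dehydrogenases, fell by 0.81 ± 0.13 in DM against wildtype (adjusted p = 0.002). Pdhb, a subunit of pyruvate dehydrogenase itself, fell by 0.45 ± 0.08 in DM against Bmp15-/- (adjusted p = 0.0244). Against wildtype it rose by 0.32 in Bmp15-/- (adjusted p = 0.046) and differed by -0.13 in DM (0.264). Its second probe set differed by -0.22 in DM against Bmp15-/- (adjusted p = 0.399). Against wildtype that set differed by -0.22 in Bmp15-/- (0.305) and fell by 0.44 in DM (0.0314), so the probe sets of Pdhb disagree. Pdha1, its catalytic partner, rose by 0.76 ± 0.13 in DM against wildtype and by 0.53 ± 0.13 in Bmp15-/- against wildtype (adjusted p = 0.00256 and 0.0327). Its second probe set differed by -0.24 in DM and 0.13 in Bmp15-/- against wildtype and passed in neither, so the probe sets of Pdha1 disagree.

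The shuttles that carry reducing equivalents of cytosolic NADH into mitochondria offer an alternative to lactate formation for regenerating NAD+. Of 10 tested, 2 fell in DM against wildtype, 1 in Bmp15-/- against wildtype and 0 in DM against Bmp15-/- by limma, where 2 had an unadjusted p under 0.05. Of all genes 18.1%, 5.78% and 1.61% were called lower, so these counts lie near the background. Median changes were -0.19, -0.09 and -0.01. Slc25a13, the aspartate-glutamate carrier citrin, fell by 0.86 ± 0.17 in DM (adjusted p = 0.00544) and by 0.74 ± 0.17 in Bmp15-/- (0.0278) against wildtype. Mdh2, mitochondrial malate dehydrogenase, fell by 0.30 ± 0.10 in DM against wildtype (adjusted p = 0.0442). The counts rest on the brightest probe set of each gene. In DM against wildtype a dimmer probe set fell by 0.48 for Mdh1 and by 0.33 for Got2, and 1 rose by 0.83 for Gpd2. These passed over all probe sets (adjusted p = 0.00371, 0.0169 and 0.00615), while the brightest did not, so the probe sets of these genes disagree. Under quantile normalization or without the pair of arrays with most oocyte signal, 1 of the 10 fell in DM against wildtype. Calls over 13446 genes were 3594 and 2210 in these settings.

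The list of regulators held transcription factors and coactivators of lactate genes, and also Egln1, Egln3 and Vhl, which are neither. Of its 9 genes tested, 3 fell (Egln1, Egln3 and Hif1a) and 2 rose in DM against wildtype. In Bmp15-/- against wildtype 2 fell, Egln1 and Egln3, and in DM against Bmp15-/- 1 rose. Of all genes tested, 28.1%, 9.07% and 3.25% were called in these comparisons. The counts include Egln3 and Ppargc1a, which were tested only because of the genotype in which they were high. Median changes were 0.02, 0.05 and 0.09. Egln1, a prolyl hydroxylase that marks hypoxia-inducible factors for destruction and is itself one of their targets, had means of 9.80 ± 0.33 in DM, 10.41 ± 0.26 in Bmp15-/- and 11.39 ± 0.13 in wildtype. It fell 3.00-fold in DM (adjusted p = 0.00035) and 1.97-fold in Bmp15-/- (0.0123) against wildtype. Its relative Egln3 lay below the filter on DM arrays (4.76, 4.92 and 4.91) and Bmp15-/- arrays (4.83, 4.66 and 4.92), and exceeded it only on those of wildtype (5.81, 6.01 and 5.29). These are the values of its brightest probe set. A second, dimmer Egln3 probe set differed from wildtype by -2.08 in DM and by -2.04 in Bmp15-/-.

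Ppargc1a, a coactivator of mitochondrial genes, exceeded the filter on the 3 DM arrays only. It read 5.46, 5.17 and 5.42 there. Below the filter, Bmp15-/- arrays read 4.61, 4.67 and 4.32, and wildtype arrays 4.36, 4.53 and 4.22. Myc, an activator of Ldha in many cells, rose by 0.97 ± 0.23 in DM against wildtype (adjusted p = 0.0133). Hif1a, the oxygen-regulated subunit of the hypoxia-inducible factor, differed by -0.24 in DM against wildtype in its brightest probe set (adjusted p = 0.0469) and by -1.11, -1.50 and -1.86 in its other 3, which all passed over all probe sets (adjusted p = 0.000658, 0.00505 and 0.000298). Without the pair of arrays with most oocyte signal, 2 of the 9 listed genes fell and 1 rose in DM against wildtype, and 0 were called in the other comparisons. Of 13446 genes tested, 2210 were then called in DM against wildtype, 166 in Bmp15-/- against wildtype and 11 in DM against Bmp15-/-.

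**Figure D4:**
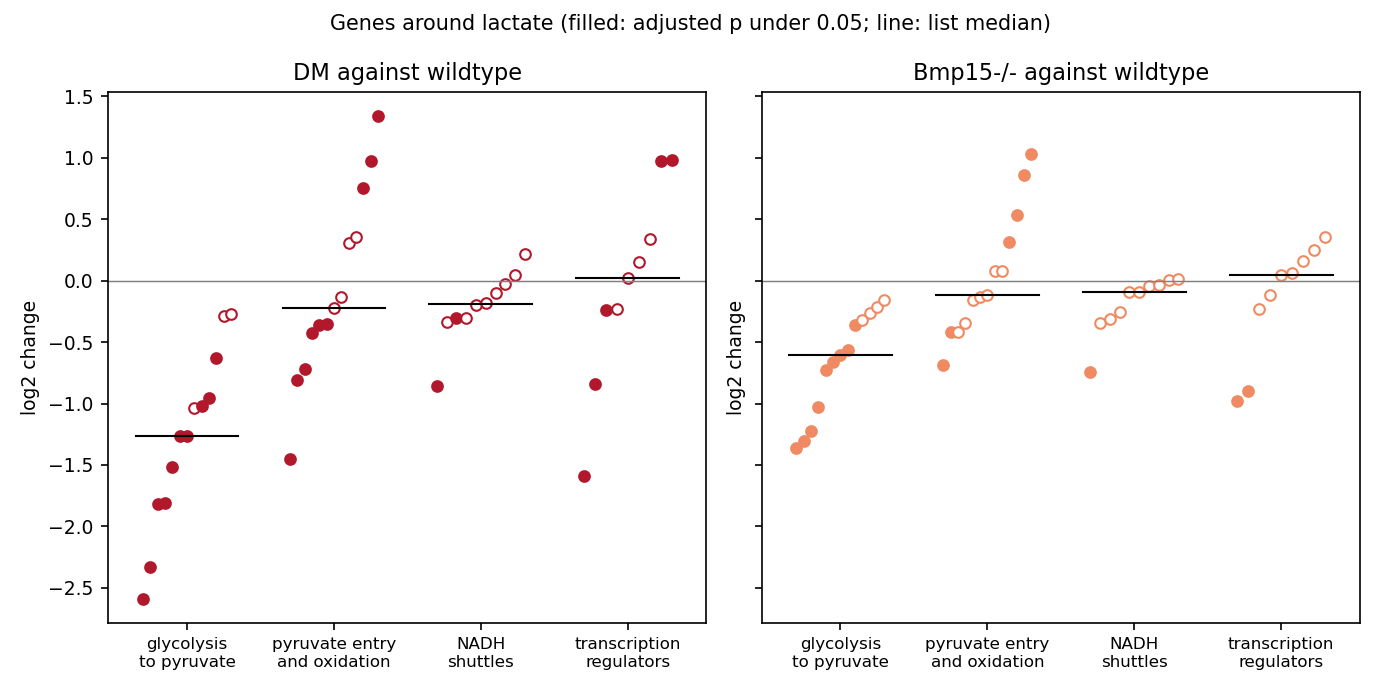
Log2 changes against wildtype of the genes tested in the lists around lactate, DM on the left and Bmp15-/- on the right, with a point per gene ordered by its change, filled where the adjusted p is under 0.05, and a line at the list median. Glycolysis lies below 0 throughout, with medians of -1.26 in DM and -0.61 in Bmp15-/-, and the list for pyruvate entry and oxidation spreads to both sides.

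Markers of other ovarian cells were read beside these results. Sums of linear values over the mural granulosa list were 2180 to 3650 in DM, 4160 to 4280 in Bmp15-/- and 5000 to 5380 in wildtype, the same order as Ldha, with all 5 markers found above the filter. The brightest of them was Inhba, at means of 11.12 in DM, 11.81 in Bmp15-/- and 12.01 in wildtype. Nppc had the same order, at means of 7.42, 7.67 and 7.90, and passed in no comparison. Kitl, which is on the cumulus list as well, fell by 1.31 in DM against wildtype (adjusted p = 0.00849). Its mean was lowest in Bmp15-/-, at 8.07, beside 8.29 in DM and 9.60 in wildtype. Others of the list ran differently: in DM against wildtype Cd34 rose by 1.27 (adjusted p = 0.000877), and Cyp11a1 differed by 0.30 (0.354). Over theca and stroma, where Col1a2, Dcn and Lum lay below the filter on all arrays, they were 841 to 1070 in DM, 711 to 773 in Bmp15-/- and 556 to 650 in wildtype, the order of Ldhb. Pdgfra, the brightest, rose by 1.57 in DM and by 0.92 in Bmp15-/- against wildtype (adjusted p = 0.000503 and 0.0197), whereas Pdgfrb fell by 0.37 in DM and by 0.43 in Bmp15-/- against wildtype (adjusted p = 0.0359 and 0.0451). The smooth muscle list, with Cnn1 below the filter, gave 369 to 417 in DM, 241 to 297 in Bmp15-/- and 225 to 266 in wildtype. In DM against wildtype its Acta2 rose by 2.09 (adjusted p = 0.000117), while Myh11, Tagln and Des differed by -0.17, 0.18 and -0.13 and did not pass. The surface epithelium list, with Krt19, Cdh1 and Muc16 below the filter, gave 925 to 964 in DM, 817 to 1040 in Bmp15-/- and 608 to 673 in wildtype. The erythroid list gave 130 to 143 in DM, 136 to 201 in Bmp15-/- and 272 to 386 in wildtype, with Hba-a1 below the filter. Of this list Alas2 fell by 2.59 in DM and by 1.98 in Bmp15-/- against wildtype (adjusted p = 0.000553 and 0.00746). Slc4a1 and Klf1 differed by -0.09 and -0.17 in DM and passed in neither mutant. Endothelial markers were below it in 4 of 5 genes, and the immune list gave 247 to 299 in DM, 250 to 298 in Bmp15-/- and 234 to 258 in wildtype. The part of these markers in the results was not tested.

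For each member, the 4 genes whose levels ran most alike over the 9 arrays were listed by Pearson r among the genes tested. The arrays fall into 3 genotypes, so these values describe a shared step pattern and carry no test. Ldha ran with Cox4i2 (r = 0.998), an oxygen-regulated subunit of cytochrome oxidase, with Pfkp (0.995), Chst8 (0.993) and Cse1l (0.993). Ldhb ran with Flna (0.992), Nedd4l (0.991), Amhr2 (0.986), the receptor for anti-Müllerian hormone, and Mxd4 (0.985). Slc16a3 ran with the spindle checkpoint gene Mad2l1 (0.995), the glycolytic gene Pgk1 (0.991), Brip1os (0.991) and Fam81a (0.991). Slc16a1 ran with Arid1a (0.969), Cep170 (0.965), Cep76 (0.959) and Oasl2 (0.949). Across genotypes these partners differed in size: Cox4i2 averaged 5.65 in DM, 7.41 in Bmp15-/- and 9.22 in wildtype, whereas Cse1l averaged 10.01, 10.26 and 10.60 in that order.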

How the data were processed

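Cumulus cell RNA of 9 samples, 3 per genotype, was measured on Affymetrix expression arrays after 2 rounds of amplification from 10 ng, which favours 3' ends. The authors deposited log2 values per probe set. Their tools were RMA and affy, per the submitters' processing notes, with versions not given in the sources used here. Summarising in this way shrinks differences of dim probe sets, and the number of arrays limits precision.

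Of 45101 probe sets, 34958 had 1 gene in the platform annotation, 932 had several and 9211 had none. A gene took the values of its brightest probe set (mean over 9 arrays) among those with 1 gene, control probe sets left out. It was tested if 3 of 9 arrays exceeded their own 40th percentile (4.97 to 5.05), which left 13446 genes. All 9 arrays entered 1 limma 3.58.1 fit (lmFit and eBayes, R 4.3.3) with genotype as the only term, and a gene was called where its 2-sided p, adjusted by Benjamini-Hochberg across the genes tested, was under 0.05. The same fit over 27954 probe sets gave each probe set its own value, and within-array balances used exact permutation tests. The fit was tested on simulated data.

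Named were all members, every measured gene of their families, up to 4 called genes with the smallest p per other list and comparison, and the 4 genes most like each member. Gpi1, Eno1 and Mpc2 were not analysed here, and Gapdh only through its control probe sets. Members and lists were chosen with earlier results of these data known. Alternatives covered the filter, probe set choice, normalization, a floor, the variance model, the arrays fitted, a replicate block and left-out arrays. Promoters came from RefSeq, where all 4 genes had an entry.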

Additional observations from a re-analysis of the deposited data

How the results depend on the processing

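Under 19 alternatives, Ldha in DM and in Bmp15-/- against wildtype, and Ldhb and Slc16a3 in DM against wildtype, kept their direction and their call. Their log2 changes ranged from -1.87 to -1.72, -1.01 to -0.90, 1.18 to 1.39 and -3.46 to -2.75. Balances were recomputed under 10 of the alternatives each (the mean of probe sets, quantile normalization, a floor and left-out arrays) and kept their direction except Slc16a3 minus Ldha in Bmp15-/- against wildtype, which lay between -0.11 and 0.11. Slc16a1 in Bmp15-/- against wildtype changed sign around 0, at -0.108 with the mean of all probe sets of a gene, at -0.024 without wildtype array 2 and Bmp15-/- array 2, and between -0.032 and 0.045 with 1 array left out (-0.012, -0.005 and -0.032 where it was negative). Its DM against wildtype change became significant with the mean of probe sets (-0.575, adjusted p = 0.00383) and with a trended, robust variance (-0.265, 0.0388), and its DM against Bmp15-/- change with the mean of probe sets (-0.467, 0.0487). With only the 6 arrays of a comparison, Slc16a3 in Bmp15-/- against wildtype passed at -0.958, and in DM against Bmp15-/- Ldhb (0.800) and Slc16a3 (-2.085) no longer passed (adjusted p = 0.12 and 0.052). The calls then numbered 1893 genes and 2855 probe sets in Bmp15-/- against wildtype (main 1219 and 1767) and 117 and 38 in DM against Bmp15-/- (main 437 and 536). Without wildtype array 2 and Bmp15-/- array 2, DM against Bmp15-/- lost Ldha (-0.784), Ldhb (0.609) and Slc16a3 (-1.979), and calls were 166 genes and 165 probe sets in Bmp15-/- against wildtype, 2210 and 3320 in DM against wildtype (main 3777 and 6779), and 11 and 23 in DM against Bmp15-/-. Fewer arrays were fitted there, so the test had less power. Other causes were not tested.

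With 1 array left out at a time, calls ranged over 445 to 1663 genes and 565 to 2393 probe sets in Bmp15-/- against wildtype, 2647 to 4153 and 4380 to 7475 in DM against wildtype, and 105 to 920 and 73 to 1261 in DM against Bmp15-/-. Changes then ranged from 0.318 to 0.698 for Ldhb and -1.081 to -0.795 for Slc16a3 in Bmp15-/- against wildtype, from -0.366 to -0.174 for Slc16a1 in DM against wildtype, and from 0.609 to 0.989 for Ldhb and -2.500 to -1.796 for Slc16a3 in DM against Bmp15-/-. Quantile normalization moved the share of lower genes among calls in Bmp15-/- against wildtype to 46.8% (main 63.7%) and in DM against wildtype to 51.6% (main 64.6%). Same-numbered arrays of different genotypes correlated at -0.08 to 0.258 after removal of genotype means, over 0.1 in 2 of 9 pairs, and not every array ran closest to one of its own number. The numbers were therefore not used to pair the samples in the main fit. So few pairs cannot exclude a pairing. The replicate block gave 3586 genes in DM against wildtype, 1084 in Bmp15-/- against wildtype and 360 in DM against Bmp15-/-, and Slc16a3 in Bmp15-/- against wildtype passed with it (-0.958, adjusted p = 0.0469). Dim probe sets near the filter, such as those of Ldhc and Ldhd, leave small changes undetectable.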
